A study of Mus musculus with 3 samples.

Results

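The laminin chains of mouse ear skin were followed across 7 kinds of cells and 3 conditions. They comprise the 9 genes Lama1, Lama2, Lama3, Lama4, Lama5, Lamb1, Lamb2, Lamb3 and Lamc1, a listed set, of 31053 genes in the deposited matrices. Laminins are secreted trimers of 1 alpha, 1 beta and 1 gamma chain, named Lama, Lamb and Lamc by gene, and they form the sheet of the basement membrane to which cells attach through integrins and dystroglycan. Endothelial basement membranes are known for the alpha chains of Lama4 and Lama5. The basement membrane under the epidermis is known for a trimer with the chains of Lama3 and Lamb3, and that of muscle and mesenchyme for Lama2.

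Each condition was 1 single-cell RNA library from a pool of mice. The adult Lang-DTA library came from Langerin-DTA mice 8 weeks old (4 males, 6 females), in which diphtheria toxin A under human Langerin control depletes Langerhans cells. The adult WT library came from C57BL/6J mice 8 weeks old (6 males, 4 females), and the young WT library from C57BL/6J mice 4 weeks old (5 males, 3 females). Per the labels' growth protocol, wild-type mice used with Langerin-DTA mice were littermates, whereas the sample labels give C57BL/6J as the genotype of both wild-type libraries. Lymphatic endothelium, blood endothelium, leukocytes and the CD45-negative, CD31-negative remainder were sorted and mixed in equal parts, so shares of cell types were set by the mixing.

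The libraries held 124590777 (adult Lang-DTA), 128595813 (adult WT) and 137441575 (young WT) unique molecular identifiers (UMIs), in 12941, 12621 and 12399 kept cells. Between 39 and 50 cell barcodes were shared by each pair of libraries. Cd207, the gene of Langerin, was at 6.64 CPM (UMIs per 1000000) in adult Lang-DTA, 608 CPM in adult WT and 691 CPM in young WT leukocytes outside the gates described next. With 1 library per condition no test was possible. Every 95% interval is exact and covers the error of counting, and none holds the spread among mice or pools. Each UMI was treated as independent, so the intervals also leave out the spread among cells. The adult WT library is shared by the comparison of genotypes and the comparison of ages.

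Cells were gated on raw UMIs of a few genes. Lymphatic endothelial cells had at least 2 Prox1 UMIs, and blood endothelial cells at least 3 UMIs of Cdh5 and Ptprb together with none of Prox1 or Mmrn1. Keratinocytes had at least 0.3% of their UMIs from Krt5 and Krt14, and were suprabasal at 0.5% or more from Krt1 and Krt10 and basal under 0.2%. Fibroblasts had at least 2 Dpt UMIs, chondrocytes at least 3 Col2a1 UMIs and pericytes at least 4 Rgs5 UMIs. In the order adult Lang-DTA, adult WT and young WT, the gates held 2367, 1563 and 4072 lymphatic, 2651, 3506 and 1728 blood endothelial, 2385, 2214 and 1135 basal and 166, 140 and 113 suprabasal cells. They held 495, 387 and 426 fibroblasts, 194, 109 and 499 chondrocytes and 137, 257 and 378 pericytes. A level is the UMIs of a gene per 1000000 summed UMIs of the gate (CPM). The chemistry counts 1 tag at the 3′ end of each molecule, so levels carry no length factor, but capture can still differ between genes.

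Most gates were led by their own markers. In the chondrocyte gate, however, the 5 fibroblast markers summed to 11354, 10998 and 10859 CPM in adult Lang-DTA, adult WT and young WT, above the 6 chondrocyte markers at 2626, 2753 and 2898 CPM, and the cartilage gene Matn1 was at 0 in all 3 libraries. These cells are therefore called the Col2a1 gate below. The suprabasal gate held basal keratinocyte markers at 3361 CPM in adult Lang-DTA, 3336 CPM in adult WT and 4133 CPM in young WT. Its suprabasal markers were at 3989, 4461 and 2706 CPM, so basal markers led in young WT. The pericyte gate also held blood endothelial markers at 1571 CPM in adult Lang-DTA, 2870 CPM in adult WT and 2218 CPM in young WT, beside pericyte markers at 4888, 2983 and 3988 CPM. In the same order, 31, 134 and 143 of its cells also passed the blood endothelial gate, and 14, 35 and 106 the fibroblast gate. Lymphatic cells of adult WT were the shallowest of their gate, with a median of 5171 UMIs, against 9496 in adult Lang-DTA and 7992 in young WT. Levels in leukocytes outside the gates, at least 3 Ptprc UMIs, are given for comparison.

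Among the alpha chains, Lama4, the main laminin alpha chain of vessels, was highest in lymphatic endothelium. Its level there was 636 CPM (626 to 646) in adult Lang-DTA, 669 CPM (653 to 686) in adult WT and 988 CPM (978 to 999) in young WT. Pericytes followed at 250.4, 287 and 316 CPM and blood endothelium at 239, 217 and 245 CPM, and the lymphatic range over libraries overlapped with neither. Fibroblasts had 186, 182 and 218 CPM, which overlapped with blood endothelium. Basal keratinocytes, at 35.0, 25.5 and 50.1 CPM, lay far below, and suprabasal keratinocytes had between 0.438 and 9.29 CPM, under 3 times the leukocyte level in every library. Of all alpha chain UMIs in lymphatic cells, Lama4 took 94.5% in adult Lang-DTA, 90.9% in adult WT and 95.6% in young WT.

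Lama5, the broad alpha chain of mature basement membranes, had its highest levels in blood endothelium (75.1, 71.9 and 85.7 CPM in adult Lang-DTA, adult WT and young WT), pericytes (86.6, 59.1 and 81.8 CPM) and basal keratinocytes (60.4, 55.9 and 80.6 CPM). The ranges of these 3 gates overlapped. The levels were 77.6 ± 7.25, 75.8 ± 14.7 and 65.6 ± 13.1 CPM as means over the 3 libraries (SD, n = 3 libraries of different conditions). Suprabasal keratinocytes were lower at 32.8, 31.7 and 45.5 CPM, and lymphatic cells lower still at 12.5, 19.3 and 20.3 CPM. Lama5 thus took 17.96%, 18.6% and 17.5% of alpha chain UMIs in blood endothelium, against 1.86%, 2.62% and 1.96% in lymphatic cells. Both endothelial gates shared Lama4 as leading alpha chain but divided the rest differently.

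Lama3, the alpha chain that anchors basal keratinocytes through hemidesmosomes, was highest in basal keratinocytes at 253 CPM in adult Lang-DTA, 261 CPM in adult WT and 296 CPM in young WT. Suprabasal keratinocytes came next at 194, 174 and 207 CPM. Blood endothelium came next at 88.3, 76.2 and 128 CPM, where Lama3 made up 21.1%, 19.8% and 26.3% of alpha chain UMIs, more than Lama5. No overlap was present between these neighbours. Pericytes (34.8, 58.7 and 66.0 CPM), the Col2a1 gate (45.7, 32.6 and 62.9 CPM) and fibroblasts (47.5, 20.1 and 43.2 CPM) overlapped with each other in turn, and lymphatic cells were lowest at 11.4, 19.4 and 11.7 CPM.

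Lama2, the alpha chain of muscle and mesenchymal basement membranes, was highest in fibroblasts, with 818 CPM (795 to 841) in adult Lang-DTA, 1272 CPM in adult WT and 779 CPM (759 to 799) in young WT. There it took 77.3%, 85.8% and 73.4% of alpha chain UMIs. Pericytes followed at 119, 234 and 266 CPM and the Col2a1 gate at 107, 142 and 79.3 CPM, and the ranges of both overlapped. In lymphatic cells Lama2 was a feature of few barcodes: 45 of 2367 cells in adult Lang-DTA, 22 of 1563 in adult WT and 72 of 4072 in young WT had any UMI. The 10 cells with most UMIs held 73.5%, 81.4% and 49.2% of the gate's Lama2 UMIs. Its lymphatic levels were 13.1, 28.6 and 12.9 CPM. Leukocytes had 22.9, 11.2 and 2.63 CPM, also from few barcodes: 33, 19 and 18 cells had any Lama2 UMI, and the 10 with most held 83.4%, 95.2% and 90.4% of them. Lama1, the alpha chain of embryonic basement membranes, had at most 3.01 CPM in any gate and library and entered no comparison.

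**Figure D1:**
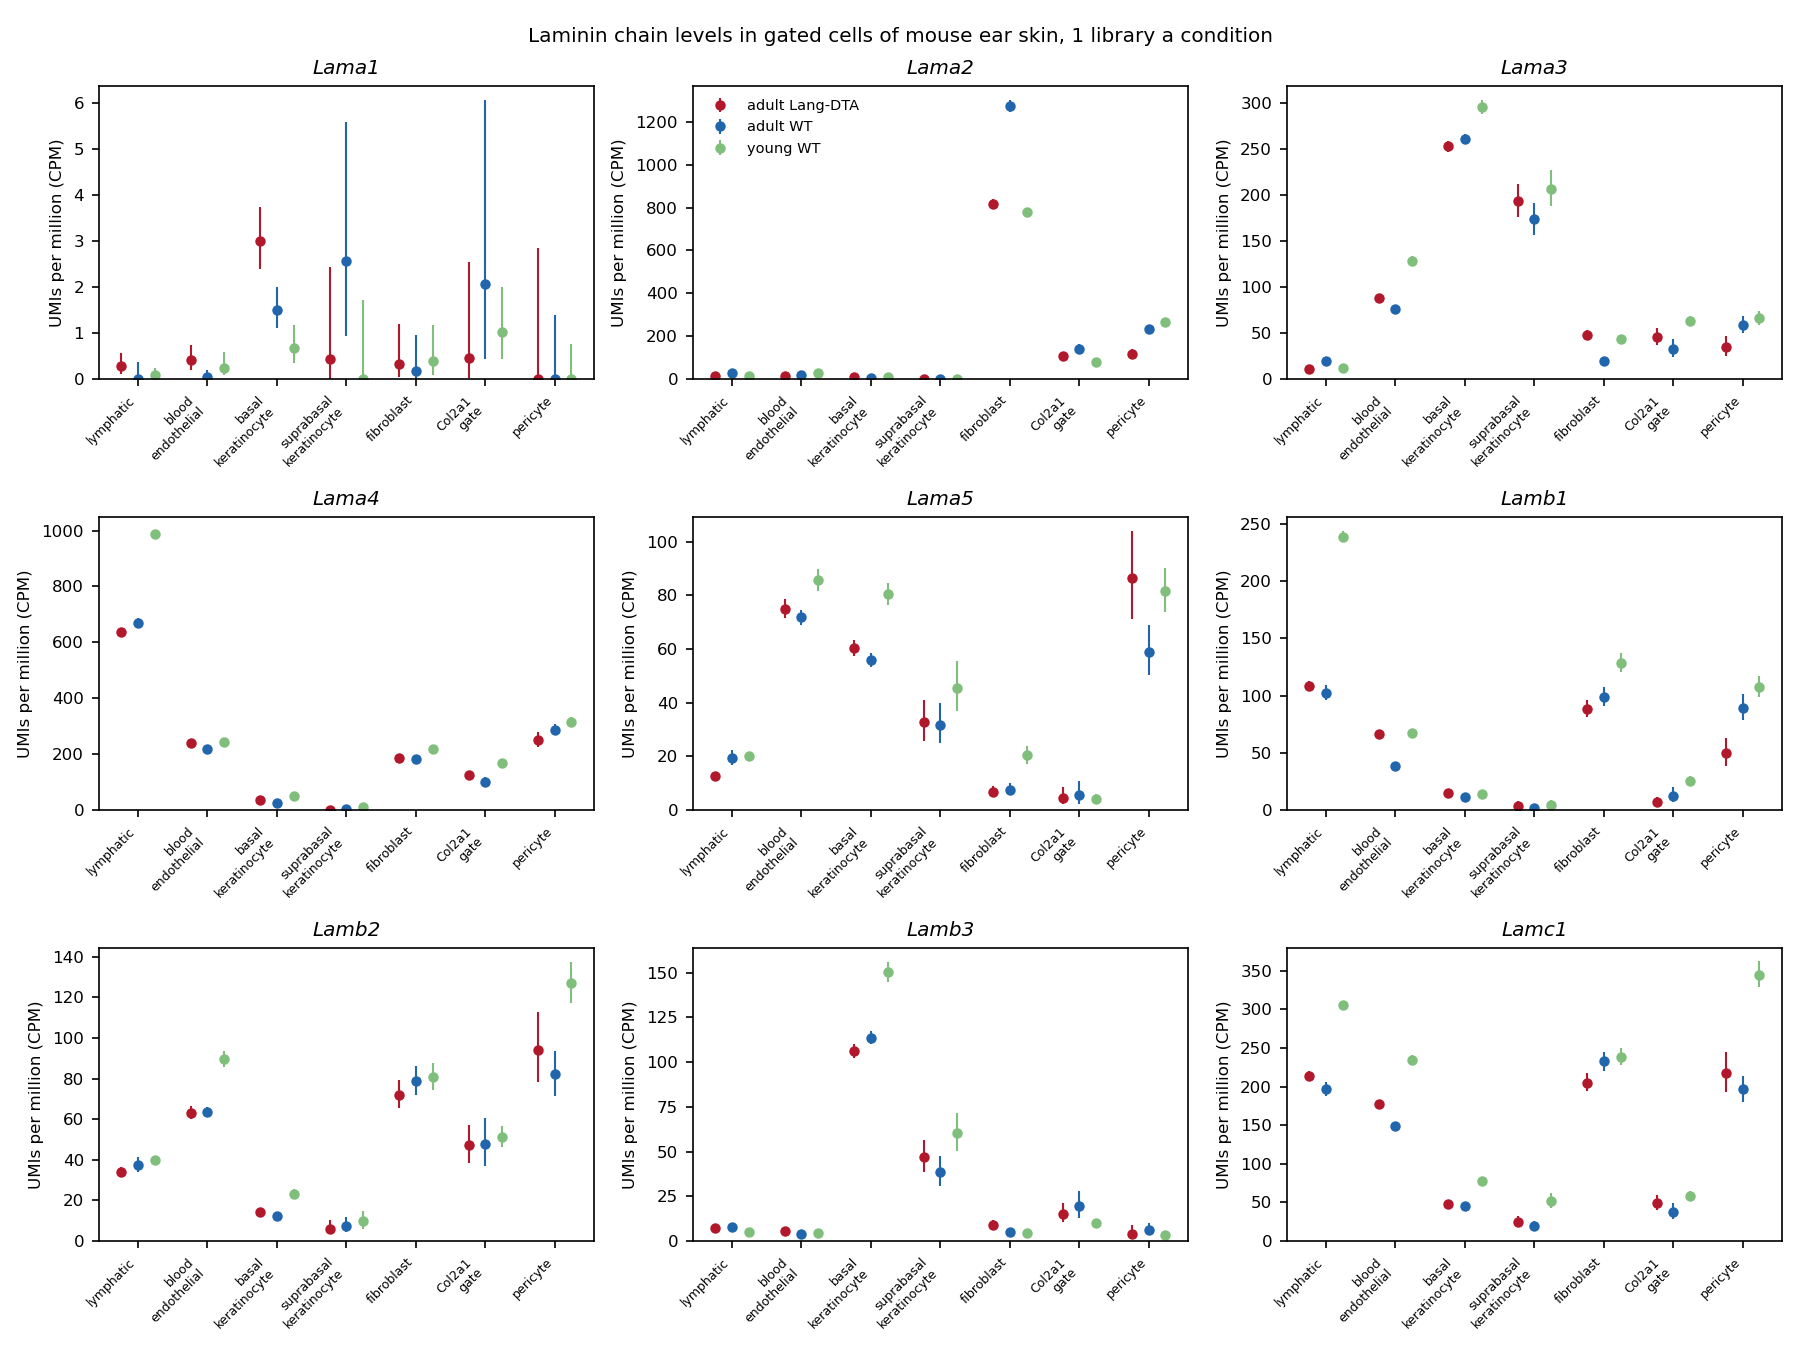
Level of each laminin chain (UMIs per 1000000, CPM, linear axis from 0, own scale per panel) in 7 gates, with 1 point per library in the order adult Lang-DTA, adult WT and young WT from the left and exact 95% Poisson intervals as bars. Lama4 stands highest in the lymphatic gate (636, 669 and 988 CPM), Lama2 in fibroblasts (818, 1272 and 779 CPM), and Lama3 and Lamb3 in basal keratinocytes.

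Among the 7 gates, the 3 beta chain genes were highest in different cells, Lamb3 in the epidermis and Lamb1 and Lamb2 in vessels and mesenchyme. Leukocytes outside the gates also held Lamb3, as given below. The stretches before their starts are shown for this contrast, beside that of Lama5, which is high in both blood endothelium and basal keratinocytes. They are from RefSeq (GRCm38.p6), in which 5 of the 9 genes were matched. Each line gives the 250 bases before the RefSeq start, 5′ to 3′ on the strand of the gene, with capitals for the GC box GGGCGG on either strand. For Lamb1 the stretch is chr12:31265043-31265292 (+), for Lamb2 chr9:108479612-108479861 (+), for Lamb3, at the first of its 2 listed starts, chr1:193301744-193301993 (+), and for Lama5 chr2:180225860-180226109 (-). The Lamb3 stretch lies inside the span of the gene in the GENCODE M21 annotation, chr1:193207699-193343878, and not before the start of that span.
Lamb1: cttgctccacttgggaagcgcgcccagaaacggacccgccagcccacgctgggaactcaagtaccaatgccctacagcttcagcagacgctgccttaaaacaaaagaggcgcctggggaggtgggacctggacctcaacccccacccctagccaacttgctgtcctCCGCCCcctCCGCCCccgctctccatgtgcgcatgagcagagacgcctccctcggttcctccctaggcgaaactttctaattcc
Lamb2: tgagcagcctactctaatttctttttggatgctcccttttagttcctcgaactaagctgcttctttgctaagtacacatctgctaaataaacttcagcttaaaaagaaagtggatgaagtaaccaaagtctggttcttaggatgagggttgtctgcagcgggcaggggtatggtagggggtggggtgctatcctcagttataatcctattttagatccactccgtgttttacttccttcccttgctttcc
Lamb3: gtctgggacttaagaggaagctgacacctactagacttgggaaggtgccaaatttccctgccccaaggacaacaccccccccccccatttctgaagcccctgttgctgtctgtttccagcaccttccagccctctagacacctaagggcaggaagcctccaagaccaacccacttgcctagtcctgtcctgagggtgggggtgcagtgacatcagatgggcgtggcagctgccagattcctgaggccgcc
Lama5: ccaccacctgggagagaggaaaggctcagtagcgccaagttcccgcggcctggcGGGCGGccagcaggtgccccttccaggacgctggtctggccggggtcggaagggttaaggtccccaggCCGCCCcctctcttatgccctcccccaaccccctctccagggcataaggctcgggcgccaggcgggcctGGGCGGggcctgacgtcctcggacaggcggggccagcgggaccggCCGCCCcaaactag
The GC box matched 2 times before Lamb1, 4 times before Lama5 and not in the windows of Lamb2 and Lamb3, and 32.9% of 27025 promoter windows in the table held it. The G and C content was 62% for Lamb1, 72.4% for Lama5, 43.6% for Lamb2 and 58.8% for Lamb3, beside a median of 52% over all windows. CCAAT matched 1 time before Lamb1 and in 34.5% of all windows. TGANTCA (6.87% of all windows) and TATAAA (13.0%), also searched on both strands, matched in none of these windows. A match is a run of letters and not a shown binding site.

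Lamb3, the beta chain of the epidermal trimer, is at chr1:193207699-193343878 (+ strand, GRCm38, GENCODE M21). It was highest in basal keratinocytes, at 106 CPM (102 to 110) in adult Lang-DTA, 114 CPM (110 to 117) in adult WT and 150.2 CPM (145 to 156) in young WT. Suprabasal keratinocytes had 46.9, 38.5 and 60.4 CPM, and the ranges did not overlap. Lamb3 took 78.7%, 82.6% and 80.0% of beta chain UMIs in basal cells. The Col2a1 gate had 15.1, 19.4 and 9.96 CPM, and the other gates had between 3.54 and 9.08 CPM. Leukocytes held Lamb3 at 108, 84.7 and 68.3 CPM, above every gate outside the epidermis and above suprabasal keratinocytes in each library. In adult Lang-DTA the leukocyte level was near that of basal keratinocytes.

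The leukocyte level of Lamb3 sat in 1 set of cells. In leukocytes with at least 3 UMIs of Trdc, Cd3e and Cd3g together, genes of T cells, Lamb3 was at 145 CPM in adult Lang-DTA, 139 CPM in adult WT and 145 CPM in young WT. This was above the basal keratinocyte level in adult Lang-DTA and adult WT and near it in young WT. Leukocytes with at least 3 Cd207 UMIs and none of those genes had 0.433 CPM in adult WT and 0.719 CPM in young WT, and leukocytes with no UMI of any of the 4 genes 8.70, 12.7 and 3.00 CPM. This division was chosen after the leukocyte levels were seen. The leukocyte level of Lamb3 was therefore not taken as a measure of free RNA. Lamb3 overlaps Hsd11b1, a glucocorticoid-activating enzyme gene on the opposite strand, and in the annotation an exon of Lamb3 overlaps it. Hsd11b1 was at 109.5 CPM in adult Lang-DTA, 101 CPM in adult WT and 91.5 CPM in young WT in the same T cell fraction, and at 2.13, 1.25 and 1.01 CPM in basal keratinocytes. Another gene, 4930570N18Rik, overlaps an exon of Lamb3 on the same strand. It was at 6.02, 5.38 and 4.22 CPM in the T cell fraction, and at 0 CPM in adult Lang-DTA and 1 UMI each in adult WT and young WT basal keratinocytes. Hsd11b1 (chr1:193221634-193264075) and 4930570N18Rik (chr1:193203038-193226208) both end before the Lamb3 stretch printed above. They overlap the longer GENCODE span of Lamb3. Whether counting used strand is not given in the sources used here, and the part of both genes in the Lamb3 level was not tested.

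Lamb1, the common beta chain of embryonic and vascular laminins, is at chr12:31265234-31329644 (+). It was at 108 CPM (104 to 112) in adult Lang-DTA, 102 CPM (96.0 to 109) in adult WT and 239 CPM (234 to 244) in young WT lymphatic cells. Fibroblasts had 88.7, 99.1 and 129 CPM, pericytes 49.5, 89.2 and 107 CPM and blood endothelium 66.3, 38.4 and 67.4 CPM, and each of these gates overlapped with the next. Keratinocytes had at most 14.6 CPM. Lamb2, the beta chain known from muscle, kidney and arterial basement membranes, is at chr9:108479736-108490530 (+). Its order was led by pericytes at 94.3, 82.1 and 127 CPM, then fibroblasts at 72.1, 78.8 and 80.8 CPM and blood endothelium at 63.3, 63.4 and 89.6 CPM, with lymphatic cells at 34.0, 37.6 and 39.7 CPM. Lamb1 therefore made up 72.4%, 69.2% and 84.2% of beta chain UMIs in lymphatic cells, and 49.1%, 36.3% and 41.8% in blood endothelium.

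Lamc1, the gamma chain shared by nearly all laminins outside the epidermal trimer, is at chr1:153218922-153332786 (-). The levels of 4 gates were close: pericytes with 218, 196 and 345 CPM in adult Lang-DTA, adult WT and young WT, lymphatic cells with 214, 197 and 305 CPM, fibroblasts with 205, 233 and 238 CPM and blood endothelium with 177, 149 and 235 CPM. Each overlapped with the next. Basal keratinocytes had 47.6, 45.2 and 77.3 CPM, suprabasal keratinocytes 25.0, 19.7 and 52.0 CPM and the Col2a1 gate 49.4, 38.1 and 58.8 CPM. Leukocytes had 51.0, 56.8 and 37.9 CPM, but those with at least 3 Cd207 UMIs and no T cell gene had 3.68 CPM in adult WT and 9.78 CPM in young WT. The leukocyte level of Lamc1 was therefore not taken as a measure of free RNA either.

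The alpha chain genes lie apart in the genome. Lama4 is at chr10:38965515-39110188 (+), Lama5 at chr2:180176373-180225859 (-), Lama2 at chr10:26980036-27619758 (-), Lama3 at chr18:12333819-12583013 (+) and Lama1 at chr17:67697259-67822647 (+). An antisense gene overlaps an exon of Lama2 (Gm48084) and of Lama3 (Gm29200).

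**Figure D2:**
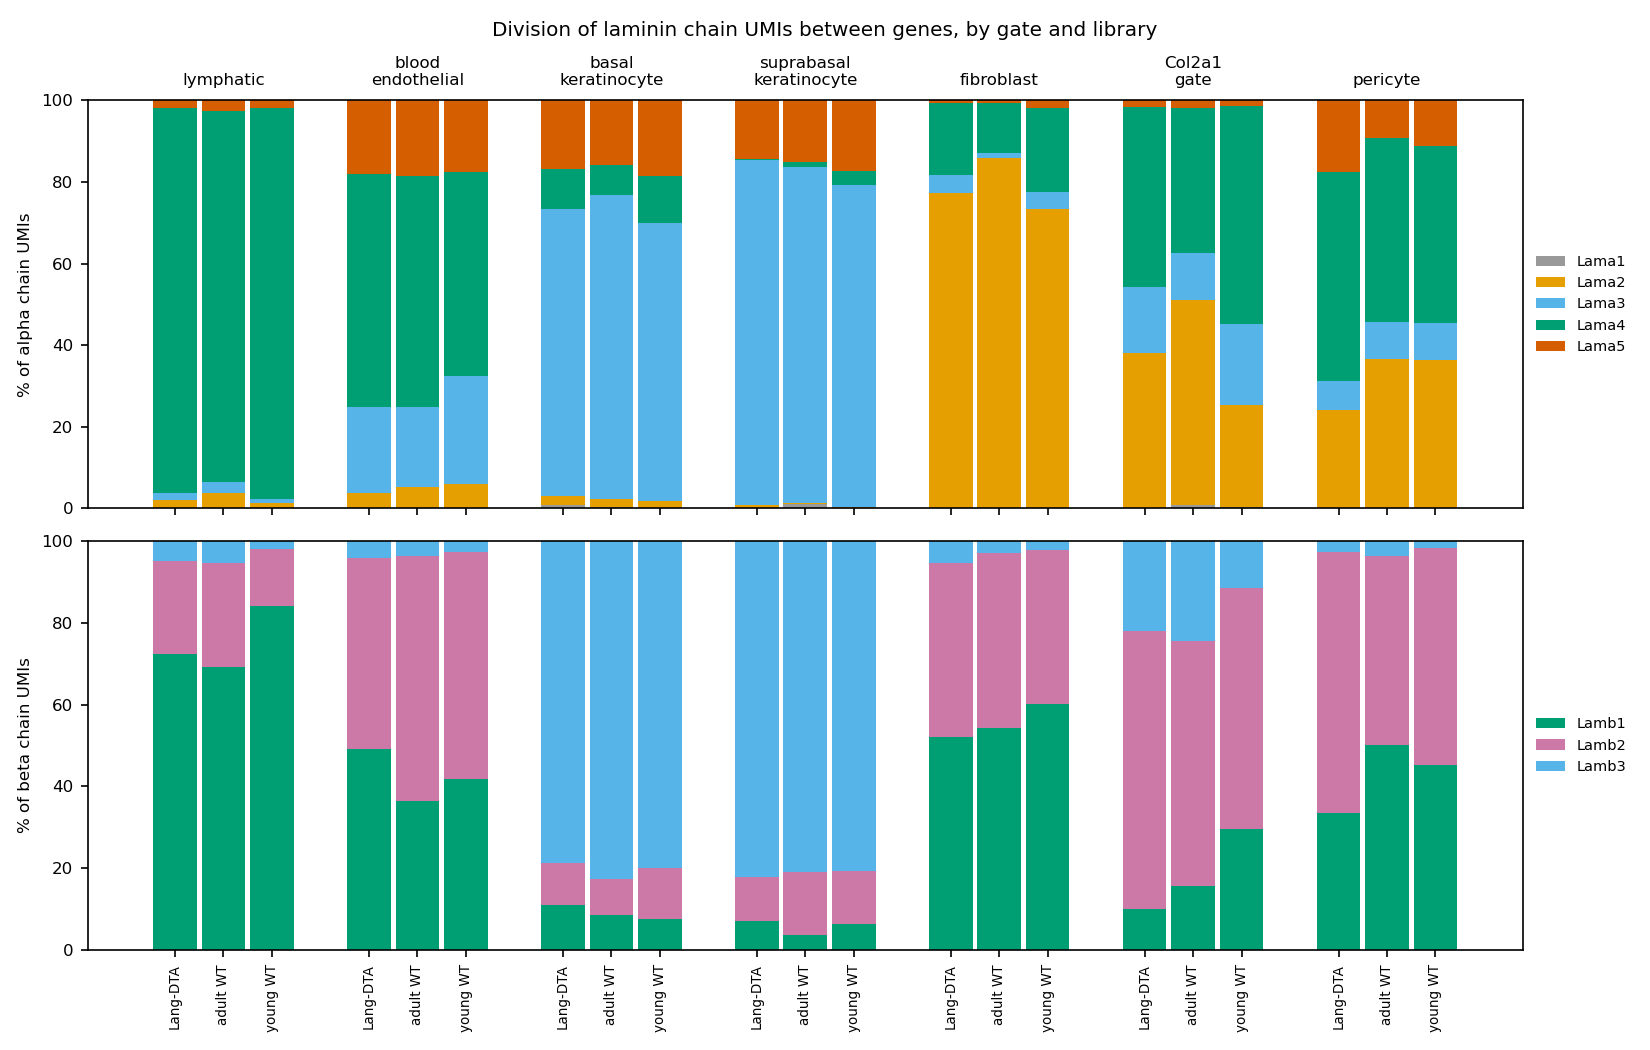
Share of alpha (top) and beta (bottom) laminin chain UMIs taken by each gene (percent, stacked to 100) in each gate, with the 3 libraries of a gate side by side from adult Lang-DTA through adult WT to young WT. Lama4 fills 90.9% to 95.6% of the lymphatic alpha bars, Lama2 73.4% to 85.8% of the fibroblast alpha bars, and Lamb3 most of the keratinocyte beta bars (78.7%, 82.6% and 80.0% in basal cells).

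Within the endothelial gates the chains separated vessel types. Lymphatic cells with at least 2 UMIs of Lyve1, a gene of lymphatic capillaries, had Lama4 at 771 CPM in adult Lang-DTA, 819 CPM in adult WT and 1137 CPM in young WT. Lymphatic cells without Lyve1 UMIs had 443, 437 and 735 CPM. Lama5 ran the other way, with 7.70, 11.1 and 11.2 CPM in the Lyve1 cells and 19.4, 31.6 and 35.1 CPM in cells without Lyve1. Both orders held in each of the 3 libraries. Median depth was 10308, 5349 and 8454 UMIs in the Lyve1 cells and 8517, 4749.5 and 7375 in the others.

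In blood endothelium, arterial-type cells (at least 2 UMIs of Sema3g and Gja5, none of Selp or Ackr1) had Lama3 at 204 CPM in adult Lang-DTA, 178 CPM in adult WT and 266 CPM in young WT. Venular-type cells (at least 2 UMIs of Selp and Ackr1, none of Sema3g or Gja5) had 44.6, 35.8 and 59.8 CPM, and cells with none of these 4 genes had 64.1, 63.3 and 95.3 CPM. Lama3 in arterial-type cells was thus close to the suprabasal keratinocyte level of the same library in adult Lang-DTA and adult WT, and above it in young WT. Lama4 was highest in the cells with none of the 4 genes, at 432, 428 and 559 CPM, against 229, 252 and 213 CPM in arterial-type and 86.5, 79.3 and 97.6 CPM in venular-type cells. Lama5 varied less, between 61.7 and 110.5 CPM over the 3 kinds of blood endothelium and the 3 libraries. Cells with none of the 4 genes were the shallowest, with medians of 6427, 6550.5 and 8922 UMIs. Medians were 7212, 8833 and 9970 UMIs in arterial-type and 9982, 11539 and 12584 UMIs in venular-type cells. The part of depth in these levels was not tested.

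The leading beta chain also differed between these kinds of cells. In venular-type cells Lamb2 took 73.1%, 79.4% and 76.5% of beta chain UMIs in adult Lang-DTA, adult WT and young WT, and in arterial-type cells 73.0%, 76.0% and 76.6%. In blood endothelial cells with none of the 4 genes, Lamb1 led with 72.7%, 63.0% and 71.2%. Lamb1 there was at 155, 97.7 and 191 CPM, against 32.8, 24.7 and 35.0 CPM in arterial-type and 13.7, 11.5 and 20.1 CPM in venular-type cells.

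**Figure D3:**
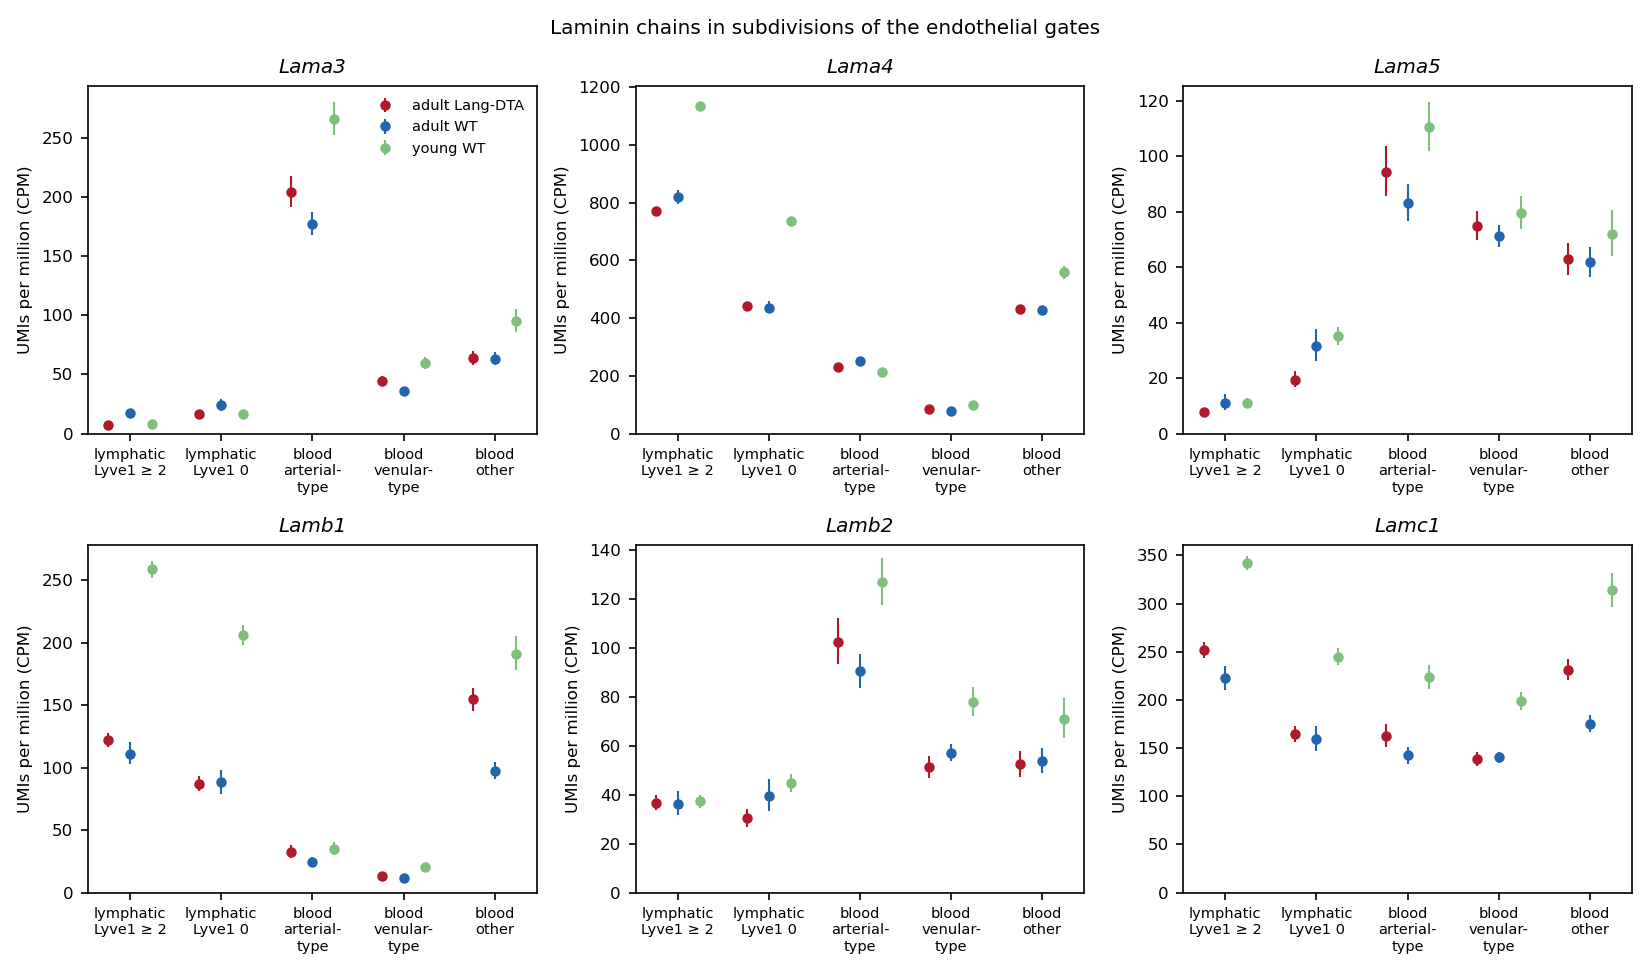
Levels of 6 laminin chains (CPM, linear axis from 0) in lymphatic cells with at least 2 or with 0 Lyve1 UMIs and in arterial-type, venular-type and other blood endothelial cells, with 1 point per library and exact 95% Poisson intervals. Lama3 peaks in arterial-type cells, Lama4 in Lyve1 lymphatic cells, and Lamb1 is at 97.7 to 191 CPM in other blood endothelium against 11.5 to 20.1 CPM in venular-type cells.

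Across the 21 combinations of gate and library, Lamb1 and Lamc1 had the most similar pattern of any pair of chains (Pearson r = 0.95 of log2(CPM + 1)), followed by Lama4 with Lamb1 (0.88) and Lama4 with Lamc1 (0.85). Lama3 with Lamb3 had r = 0.73. Among 8818 genes at 30 CPM or more in at least 1 combination, the closest to Lama5 was Bcam (0.98), the gene of a laminin receptor of the immunoglobulin family. The closest to Lama2 was Dpt (0.98), which also defined the fibroblast gate, and the closest to Lama4 was Rassf8 (0.98). For Lamb2, Hspg2, the gene of perlecan in basement membranes, was second (0.97) after Sept11 (0.98). For Lamb1 the closest were Tril (0.96), Lamc1 and Fam49a (0.95), for Lamb3 Cib2 (0.98), for Lama3 D16Ertd472e (0.95) and for Lamc1 Adam12 (0.96). These values describe 7 gates that share libraries and depth, and carry no test.

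Adult WT ears were compared with young WT ears to ask how the chains differ between these ages. More chains were lower than higher in adult WT, with the beta chain Lamb1 and the gamma chain Lamc1 lower in both endothelial gates. A ratio was read only where the gene had at least 50 UMIs over both libraries and 10 CPM in the higher one, which left 46 of 63 combinations of chain and gate. Of these, 18 were lower by at least 1.5-fold and 5 higher. Over all genes in the 7 gates 7.57% were lower and 6.07% higher by that measure. At 2-fold, 5 were lower and 1 higher, against 2.16% and 1.91% of all genes. The 46 are not independent, because gates share genes and free RNA.

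In lymphatic cells Lamb1 had the largest difference toward lower of the chains, with 102 CPM in adult WT and 239 CPM in young WT. Its log2 ratio was -1.22 (-1.32 to -1.13), a 2.33-fold difference. In Lyve1 cells it had 111 CPM in adult WT and 259 CPM in young WT (-1.22), and in cells without Lyve1 88.1 and 206 CPM (-1.23). Female-called cells had 118 CPM in adult WT and 236 CPM in young WT, and male-called cells 93.0 and 250.5 CPM. In cells of 5000 to 15000 UMIs, a window chosen after the depths were seen, the log2 ratio was -1.33. Lamc1 was at 197 CPM in adult WT and 305 CPM in young WT (-0.63, -0.70 to -0.56), and Lama4 at 669 and 988 CPM (-0.56, -0.60 to -0.52), just short of 1.5-fold. Lamb2 (37.6 CPM in adult WT and 39.7 CPM in young WT; -0.08) and Lama5 (19.3 and 20.3 CPM; -0.07) were close to the median gene of the gate at -0.09. The 2 chains lower by 1.5-fold were Lamb1 and Lamc1, in a gate in which 5.58% of genes were lower and 6.42% higher. Lamc1 fell short of 1.5-fold with median-of-ratios scaling, with cells weighted equally and in female-called cells, where values came as near to 0 as -0.54. Lamb1 stayed past it in all 9 alternatives, between -1.43 and -1.0.

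Higher in adult WT lymphatic cells were Lama2 (28.6 CPM in adult WT and 12.9 CPM in young WT; 1.14) and Lama3 (19.4 and 11.7 CPM; 0.73). Both rest on few cells. For Lama2 these are the 22 and 72 cells described above, and the ratio was 0.45 without cells that passed a further gate or had 3 or more Ptprc UMIs. Lama3 had UMIs in 62 of 1563 adult WT and 130 of 4072 young WT cells, and the ratio was -0.28 in female-called cells. Markers of fibroblasts in the lymphatic gate summed to 417 CPM in adult WT and 452 CPM in young WT, and basal keratinocyte markers to 390 and 255 CPM, with all markers of both lists detected. The part of these cell types in both ratios was not tested.

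In blood endothelium Lama3 had 76.2 CPM in adult WT and 128 CPM in young WT (-0.75, -0.83 to -0.67). Lamb1 had 38.4 and 67.4 CPM (-0.81, -0.92 to -0.70), and Lamc1 had 149 and 235 CPM (-0.65, -0.71 to -0.60). These were 3 of 7 chains read in a gate where 4.67% of genes were lower, and no chain was higher (3.92% of genes). Lama4 (217 CPM in adult WT and 245 CPM in young WT; -0.17) and Lama5 (71.9 and 85.7 CPM; -0.25) differed less. Lama3 was lower in venular-type cells (-0.74), arterial-type cells (-0.58) and the remaining cells (-0.59). The venular-type, arterial-type and remaining cells numbered 1373, 681 and 1076 in adult WT and 663, 493 and 413 in young WT. Lamb1 in the remaining cells, where it is highest, was at 97.7 CPM in adult WT and 191 CPM in young WT (-0.97). Pericyte markers in the blood endothelial gate summed to 80.9 CPM in adult WT and 259 CPM in young WT, and their part in these values was not tested. With median-of-ratios scaling Lamc1 was at -0.56.

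In basal keratinocytes the epidermal chains Lama3 and Lamb3 were short of 1.5-fold. Lama3 had 261 CPM in adult WT and 296 CPM in young WT (-0.18), and Lamb3 114 and 150.2 CPM (-0.40). Lower by 1.5-fold were Lamc1 (45.2 CPM in adult WT and 77.3 CPM in young WT; -0.78), Lamb2 (12.1 and 23.4 CPM; -0.94) and Lama4 (25.5 and 50.1 CPM; -0.97), 3 of 7 chains read against 4.4% of genes, and no chain was higher (4.23% of genes). Lama4 was at -0.45 without cells that passed a further gate or had 3 or more Ptprc UMIs. Markers of blood endothelium summed to 67.8 CPM in adult WT and 105 CPM in young WT basal cells and lymphatic markers to 64.9 and 159 CPM, and their part was not tested. Suprabasal cells had Lamc1 at 19.7 CPM (14.4 to 26.3) in adult WT and 52.0 CPM (42.8 to 62.6) in young WT (-1.40), and Lamb3 at 38.5 and 60.4 CPM (-0.65), where 7.11% of genes were lower and 6.7% higher. In cells of 5000 to 15000 UMIs the suprabasal ratios were -0.53 for Lamc1 and -0.11 for Lamb3. Lamb3 was also short of 1.5-fold with cells weighted equally (-0.50) and in male-called cells (-0.46). Basal keratinocyte markers in the suprabasal gate summed to 3336 CPM in adult WT and 4133 CPM in young WT and suprabasal markers to 4461 and 2706 CPM, and their part was not tested.

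In fibroblasts Lama2 was higher in adult WT, at 1272 CPM against 779 CPM in young WT (0.71, 0.66 to 0.76), in a gate with 5.77% of genes higher. Its UMIs were found in 326 of 387 adult WT and 274 of 426 young WT cells, and the 10 cells with most held 15.9% and 17.4% of them. Lama2 was at 0.35 without cells that passed a further gate or had 3 or more Ptprc UMIs. It was also short of 1.5-fold with stricter gates (0.58) and in male-called cells (0.50). Lama3 (20.1 CPM in adult WT and 43.2 CPM in young WT; -1.10, -1.42 to -0.79) and Lama5 (7.63 and 20.4 CPM; -1.42, -1.94 to -0.92) were lower, where 9.38% of genes were. The adult WT side of Lama5 rests on 44 UMIs in 24 of 387 cells, and the 10 cells with most held 68.2% of them. Lamc1, at 233 CPM in adult WT and 238 CPM in young WT (-0.04), was short of 1.5-fold in this gate alone of the 7. Fibroblast markers summed to 34695 CPM in adult WT and 30208 CPM in young WT, blood endothelial markers to 351 and 485 CPM and pericyte markers to 532 and 1148 CPM. The part of the other cell types was not tested.

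In pericytes Lamc1 (196 CPM in adult WT and 345 CPM in young WT; -0.81) and Lamb2 (82.1 and 127 CPM; -0.63) were lower, in a gate with 9.35% of genes lower and 6.47% higher. Lamb2 fell short of 1.5-fold with median-of-ratios scaling (-0.55), with stricter gates (-0.58) and without cells that passed a further gate or had 3 or more Ptprc UMIs (-0.57). In the Col2a1 gate 12% of genes were lower and 8.89% higher. There Lamb1 (12.5 CPM in adult WT and 25.7 CPM in young WT; -1.04), Lama3 (32.6 and 62.9 CPM; -0.95), Lama4 (100.5 and 169.5 CPM; -0.75) and Lamc1 (38.1 and 58.8 CPM; -0.63) were lower. Lama2 (142 CPM in adult WT and 79.3 CPM in young WT; 0.84) and Lamb3 (19.4 and 9.96 CPM; 0.96) were higher. The adult WT side of Lamb1 rests on 18 UMIs and that of Lamb3 on 28 UMIs. Lama4 was short of 1.5-fold in 4 of 9 alternatives, as near to 0 as -0.42, and Lamc1 in 3 of 9, as near as -0.32. Lymphatic markers in the Col2a1 gate summed to 79.7 CPM in adult WT, with Mmrn1 at 0, and 356 CPM in young WT. None of its cells in adult WT and 28 in young WT also passed the lymphatic gate, and the part of lymphatic cells was not tested.

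**Figure D4:**
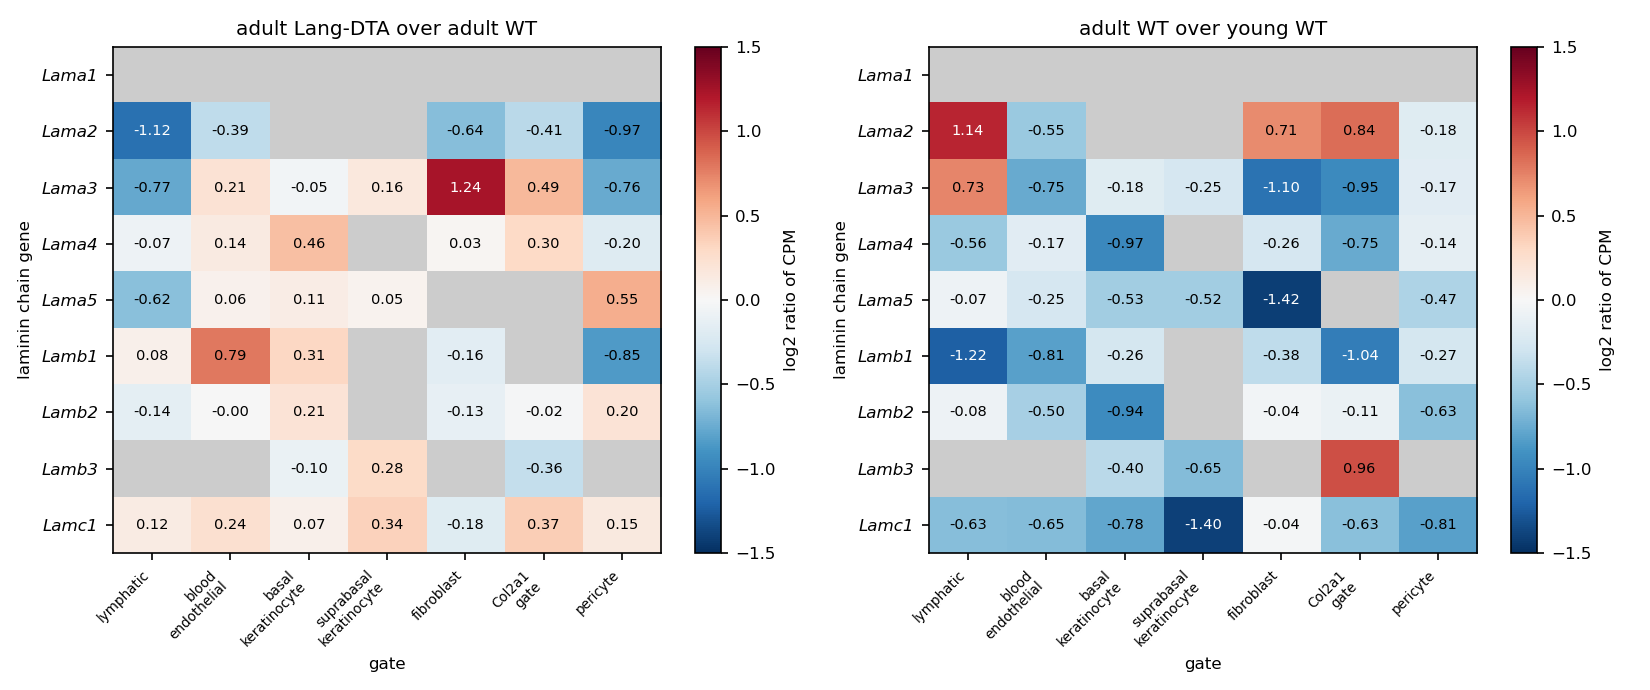
Log2 ratio of CPM for each laminin chain (down) and gate (across), adult Lang-DTA over adult WT on the left and adult WT over young WT on the right, with the value printed in each cell, red for higher and blue for lower. Grey cells had fewer than 50 UMIs over both libraries or under 10 CPM in the higher one, and no error is drawn. Lamc1 is below 0 in all 7 gates on the right (-1.40 to -0.04), and Lama4 in lymphatic cells is near 0 on the left (-0.07).

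Adult Lang-DTA ears were then compared with adult WT ears to ask how the chains differ where Langerhans cells are depleted. Higher in adult Lang-DTA were Lamb1 in blood endothelium and Lama3 in fibroblasts, while Lama2 was lower in fibroblasts, pericytes and lymphatic cells. Except for Lama2 in pericytes, adult Lang-DTA was near young WT in these, and the shared adult WT library lay apart. In those, the genotype and age ratios rest on the same adult WT value and are not separate results. The leading chains of lymphatic cells and of basal keratinocytes were short of 1.5-fold. Of 44 combinations that could be read, 7 were lower and 2 higher by at least 1.5-fold, beside 5.54% lower and 7.01% higher over all genes in the 7 gates. At 2-fold, 1 was lower and 1 higher, against 1.95% and 2.51% of all genes.

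In lymphatic cells the leading chains were at close levels while much of the gate's other RNA was not. By 1.5-fold, 22.2% of genes were higher and 16.8% lower. Lama4 was at 636 CPM in adult Lang-DTA and 669 CPM in adult WT (-0.07, -0.12 to -0.03), Lamb1 at 108 and 102 CPM (0.08, -0.02 to 0.19), Lamc1 at 214 and 197 CPM (0.12, 0.04 to 0.20) and Lamb2 at 34.0 and 37.6 CPM (-0.14). The median gene of the gate was at 0.08. The intervals of the 3 leading chains lie between -0.12 and 0.20 on the log2 scale. In female-called cells Lamb1 was at 108 CPM in adult Lang-DTA and 118 CPM in adult WT, and in male-called cells at 109 and 93.0 CPM. Lymphatic markers, by contrast, summed to 5172 CPM in adult Lang-DTA and 12019 CPM in adult WT.

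The 3 lymphatic chains lower by 1.5-fold in adult Lang-DTA were Lama2 (13.1 CPM in adult Lang-DTA and 28.6 CPM in adult WT; -1.12), Lama3 (11.4 and 19.4 CPM; -0.77) and Lama5 (12.5 and 19.3 CPM; -0.62). Each is a chain of low level or few cells in this gate. In Lyve1 cells Lama2 was at 4.35 CPM in adult Lang-DTA and 28.1 CPM in adult WT (-2.69). All 157 adult WT UMIs of that value came from 10 cells, 1 of which held 72. Lama3 was at 0.88 in female-called cells, the opposite direction, and Lama5 was short of 1.5-fold in 5 of 9 alternatives, as near to 0 as -0.48. Fibroblast markers summed to 326 CPM in adult Lang-DTA and 417 CPM in adult WT in this gate and basal keratinocyte markers to 207 and 390 CPM. Their part was not tested.

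In blood endothelium Lamb1 was the 1 chain past 1.5-fold, in a gate where 2.38% of genes were higher and 0.779% lower. It was at 66.3 CPM (63.1 to 69.6) in adult Lang-DTA and 38.4 CPM (36.4 to 40.5) in adult WT, a log2 ratio of 0.79 (0.68 to 0.89). Female-called cells had 65.4 CPM in adult Lang-DTA and 36.7 CPM in adult WT, and male-called cells 72.7 and 38.8 CPM. The difference was smaller inside venular-type cells (13.7 CPM in adult Lang-DTA and 11.5 CPM in adult WT; 0.25) and arterial-type cells (32.8 and 24.7 CPM; 0.41) than in the remaining cells (155 and 97.7 CPM; 0.66, 0.53 to 0.79). The remaining cells, rich in Lamb1, were 929 of 2651 in adult Lang-DTA and 1076 of 3506 in adult WT. In cells without Mki67 or Top2a, genes of cycling cells, the ratio was 0.55, below 1.5-fold. Lamc1 (177 CPM in adult Lang-DTA and 149 CPM in adult WT; 0.24), Lama3 (88.3 and 76.2 CPM; 0.21), Lama4 (239 and 217 CPM; 0.14) and Lama5 (75.1 and 71.9 CPM; 0.06) differed less, and Lamb2 had 63.3 CPM in adult Lang-DTA and 63.4 CPM in adult WT.

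In basal keratinocytes, where Langerhans cells reside among the epidermal cells of the intact ear, no chain reached 1.5-fold, in a gate with 0.549% of genes lower and 1.28% higher. Lama3 was at 253 CPM in adult Lang-DTA and 261 CPM in adult WT (-0.05), Lamb3 at 106 and 114 CPM (-0.10) and Lama5 at 60.4 and 55.9 CPM (0.11). Lama4 had the largest ratio of the chains read in this gate, with 35.0 CPM in adult Lang-DTA and 25.5 CPM in adult WT (0.46). Blood endothelial markers in basal cells summed to 108 CPM in adult Lang-DTA and 67.8 CPM in adult WT, and their part was not tested.

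In fibroblasts Lama3 was higher, at 47.5 CPM (42.2 to 53.4) in adult Lang-DTA and 20.1 CPM (16.6 to 24.1) in adult WT (1.24, 0.92 to 1.56), in a gate with 5.38% of genes higher. It had UMIs in 93 of 495 adult Lang-DTA and 53 of 387 adult WT cells, and stayed past 1.5-fold in all 9 alternatives (0.70 to 2.04). Lama2 was lower, at 818 CPM in adult Lang-DTA and 1272 CPM in adult WT (-0.64, -0.69 to -0.59), where 3.29% of genes were lower. It fell short of 1.5-fold with cells weighted equally and in male-called cells, as near to 0 as -0.54. Fibroblast markers summed to 24043 CPM in adult Lang-DTA and 34695 CPM in adult WT and chondrocyte markers to 751 and 366 CPM, with Matn1 at 0. Suprabasal keratinocyte markers summed to 89.6 CPM in adult Lang-DTA and 40.4 CPM in adult WT, where Lor was at 0, and basal keratinocyte markers to 128 and 162 CPM. The part of these cell types was not tested.

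In pericytes Lama2 (119 CPM in adult Lang-DTA and 234 CPM in adult WT; -0.97), Lamb1 (49.5 and 89.2 CPM; -0.85) and Lama3 (34.8 and 58.7 CPM; -0.76) were lower, in a gate with 9.22% of genes lower and 8.55% higher. The adult Lang-DTA side of Lama3 rests on 45 UMIs and that of Lamb1 on 64 UMIs. Fewer adult Lang-DTA pericytes also passed the endothelial or fibroblast gate, as given above. Without cells that passed a further gate or had 3 or more Ptprc UMIs, Lama3 was at 1.47, the opposite direction, Lamb1 at -0.47 and Lama2 at -1.19. The Col2a1 gate (3.86% of genes lower, 5.14% higher) and suprabasal keratinocytes (3.53% lower, 2.62% higher) had no chain past 1.5-fold.

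The partners and receptors of laminin were read from a list of 29 other genes, among them nidogens, perlecan and agrin, which link laminin to the rest of the membrane, integrin chains, and proteinases that cut laminin chains. The alternatives in scaling, cells and gates were run for the laminin chains and not for this list. For age, more genes of the list were lower than higher by 1.5-fold in adult WT in each gate. In blood endothelium 8 of 26 read were lower, where 4.67% of all genes were, and none higher (median -0.34, beside -0.09 for all genes). In fibroblasts 9 of 27 were lower, against 9.38% of genes, and 1 higher, against 5.77% (-0.32, beside -0.12). In lymphatic cells 5 of 25 were lower, against 5.58% of genes, and 3 higher, against 6.42% (-0.17, beside -0.09). The Col2a1 gate had 10 of 24 lower, against 12% of genes, and 4 higher, against 8.89%, with a median of -0.08 beside -0.08 for all genes. Col18a1, the basement membrane collagen that carries endostatin, was lower in all 7 gates, for example at 208 CPM in adult WT and 412 CPM in young WT lymphatic cells (-0.99). Nid1, nidogen 1, was at 119 CPM in adult WT and 193 CPM in young WT lymphatic cells (-0.69) and at 94.5 and 151 CPM in blood endothelium (-0.68). In basal keratinocytes 6 of 24 were lower, against 4.4% of genes, and 1 higher, against 4.23%, with Col7a1, the anchoring fibril collagen, at 79.9 CPM in adult WT and 157 CPM in young WT (-0.97) and Hspg2 at 18.9 and 37.0 CPM (-0.97). Tll1, a proteinase of the tolloid family, was the higher one, at 70.1 and 37.7 CPM (0.90).

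For genotype the list differed most in lymphatic cells, as did all genes there: 9 of 25 were lower, against 16.8% of genes, and 4 higher, against 22.2% (median -0.22, beside 0.08 for all genes). Tll1 was at 57.5 CPM in adult Lang-DTA and 224 CPM in adult WT (-1.97), Col15a1, a collagen of the outer basement membrane, at 9.76 and 31.1 CPM (-1.67) and Bcam at 20.6 and 44.8 CPM (-1.12). The laminin-binding integrin genes Itga6 (168 CPM in adult Lang-DTA and 270.4 CPM in adult WT; -0.69) and Itgb4 (59.7 and 94.6 CPM; -0.67) were lower too. This did not hold in both kinds of lymphatic cells. Of 5 integrin chains read in Lyve1 cells, none was lower by 1.5-fold and 2 were higher. In cells without Lyve1, 2 of 5 were lower and 2 higher. Higher were Mmp14, a membrane-bound metalloproteinase, at 178 CPM in adult Lang-DTA and 59.3 CPM in adult WT (1.58), Itga1, a collagen and laminin receptor chain, at 141 and 65.6 CPM (1.10), Bmp1 at 57.7 and 35.1 CPM (0.72), and the common integrin chain Itgb1 at 747 and 482 CPM (0.63). In blood endothelium 1 of 26 was higher, against 2.38% of genes, and none lower, namely Nid2, nidogen 2, at 39.2 CPM in adult Lang-DTA and 21.03 CPM in adult WT (0.90). In fibroblasts 7 of 26 were higher, against 5.38% of genes, and none lower. Among them were Agrn, agrin, at 15.4 CPM in adult Lang-DTA and 7.11 CPM in adult WT (1.11) and Itga6 at 116 and 66.1 CPM (0.81). The part of other cell types in these values was not tested.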

How the data were processed

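The count matrices were deposited by the authors as unnormalized UMI counts per gene and cell barcode. Per the submitters' processing notes they were made with Cell Ranger 8.01 against GRCm38, and per the file headers with 8.0.1. Not given in the sources used here are which annotation was counted, whether introns or strand entered the counting, and whether free RNA was subtracted. An imiquimod condition named in the labels was not analysed here.

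Barcodes with at least 500 genes, 1000 UMIs and at most 10% mitochondrial UMIs were kept. UMIs were summed per gate and library and divided by the gate's total. No doublet caller was run. Cells in 2 or more gates numbered 229 in adult Lang-DTA, 276 in adult WT and 396 in young WT, and stayed in each gate they passed. Intervals are exact Poisson for levels and exact conditional for ratios. The code was tested on simulated counts. Python 3.11.15, numpy 2.4.6, scipy 1.17.1, pandas 2.3.3 and matplotlib 3.10.9 were used. The members, gates, marker lists and the list of 29 partner genes were chosen with earlier results of these data known. Named genes were all members and, of the partner list, genes past 1.5-fold with the largest ratios. For likeness of pattern they come from the 3 genes with the highest correlation to each chain. Gene positions are from GENCODE M21. Alternatives comprised other barcode filters, scaling, equal weights for cells, cells of 1 gate with under 3 Ptprc UMIs, stricter gates, cells called female or male from sex-linked genes, cells without cycling genes, a depth window, a 2-fold limit and no minimum.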

Additional observations from a re-analysis of the deposited data

Results flagged for a closer look

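Some chains had ratios past 1.5-fold in opposite directions in different gates, and none of these differences between gates was tested. For adult WT over young WT, the log2 ratio of Lama3 was 0.73 in lymphatic cells, against -0.75 in blood endothelium, -1.10 in fibroblasts and -0.95 in the Col2a1 gate. For the same ages Lamb3 was at 0.96 in the Col2a1 gate and -0.65 in suprabasal keratinocytes. For adult Lang-DTA over adult WT, Lama3 was at 1.24 in fibroblasts, against -0.77 in lymphatic cells and -0.76 in pericytes, and Lamb1 at 0.79 in blood endothelium and -0.85 in pericytes.

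Leukocytes outside the 7 gates, which enter no comparison, held 2 of the 9 chains at 10 CPM or more in all 3 libraries. Lamb3 was at 108.0 CPM in adult Lang-DTA, 84.7 CPM in adult WT and 68.3 CPM in young WT. Lamc1 was at 51.0, 56.8 and 37.9 CPM in the same order.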

How the results depend on the processing

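Of the 32 ratios past 1.5-fold, 1 of 5 higher and 9 of 18 lower for age, and 1 of 2 higher and 2 of 7 lower for genotype, stayed past it in all 9 alternatives that changed scaling, cells or gates. The direction turned for Lama3 alone among these. In pericytes its ratio of adult Lang-DTA over adult WT was 1.47 without cells that passed a further gate or had 3 or more Ptprc UMIs, called cells of 1 gate here. In lymphatic cells it was 0.88 for adult Lang-DTA over adult WT and -0.28 for adult WT over young WT, both in female-called cells. The causes were not tested. The 5 higher for age became 2 with cells of 1 gate, 3 with stricter gates, 3 in female-called and 3 in male-called cells, 1 at 2-fold and 9 without a minimum. The 18 lower for age became 5 at 2-fold. The 2 higher for genotype became 4 with cells of 1 gate, 4 with stricter gates, 4 in female-called cells, 1 at 2-fold and 8 without a minimum. The 7 lower for genotype became 4 with cells of 1 gate, 4 in male-called cells, 1 at 2-fold and 12 without a minimum. No paired analysis was possible because each condition had 1 library, and no library could be left out. Condition, pool and library cannot be told apart. Depth limits the pericyte, suprabasal and Col2a1 gates most, where some values rest on under 50 UMIs.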

Other observations

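Outside the gates, Lamc1 was at 46.5 CPM in adult Lang-DTA, 56.7 CPM in adult WT and 53.9 CPM in young WT T cells, defined as leukocytes with at least 3 UMIs of Trdc, Cd3e and Cd3g and none of Cd207. Leukocytes with no UMI of these 4 genes had 56.4, 87.9 and 29.8 CPM. Leukocytes with at least 3 Cd207 UMIs and none of the T cell genes numbered 316 in adult WT and 469 in young WT and had 3.68 and 9.78 CPM. The adult Lang-DTA library held 3 such cells. Lamb3 UMIs were found in 703 of 1842 leukocytes in adult Lang-DTA, 946 of 2543 in adult WT and 910 of 2784 in young WT, and the 10 cells with most held 5.6%, 4.8% and 5.1% of them.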
